A study of Mus musculus with 2 samples.

Results

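The Rab proteins are the largest family of small GTPases that direct membrane traffic. The family was taken as every gene of the deposited table whose symbol is Rab followed by a number and at most a letter and a digit, which gave 59 of 37172 genes. The rule used names alone, so pseudogenes and related genes with other symbols are left out, and no measured value entered it. A Rab protein switches between a GTP-bound form on a membrane and a GDP-bound form held in the cytosol. Exchange factors (GEFs) load it with GTP, GTPase-activating proteins (GAPs) turn it off, and effectors bound to the active form tether, move or fuse vesicles. Each organelle carries its own set, and in the intestinal epithelium Rab11a, Rab25 and Rab8a are known for delivering cargo to the apical membrane with its microvilli.

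The cells came from organoids, epithelial structures grown from crypts of the proximal small intestine of wild-type C57BL/6 mice, and were harvested on day 4; the sources used here do not give the number of mice. In the collagen group, organoids were embedded in collagen type I under medium with EGF at 50 ng/mL, Noggin at 100 ng/mL, R-spondin1 at 400 ng/mL, Wnt3a (100 ng/mL), nicotinamide (10 mM) and 1% albumin from bovine serum, and were released with collagenase at 0.5 mg/mL. In the Matrigel group, organoids were embedded in Matrigel, a basement membrane extract, under medium with EGF, Noggin and R-spondin1 alone, and were released with a non-enzymatic recovery solution. Matrix, medium and release therefore differ together and cannot be told apart. Cells of each culture received a barcoded hashtag through an antibody to the epithelial surface protein EpCAM, and both cultures went into 1 single-cell cDNA library.

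The kept cells numbered 336 from collagen and 1599 from Matrigel, with medians of 124619 and 179044 counts and of 7893.5 and 9459 detected genes per cell, and 0 cell barcodes were shared between the cultures. There was 1 cell suspension per culture, so no value has a replicate check and no test between the cultures was made. Intervals are exact Poisson or Clopper-Pearson intervals at 95% and cover counting error only. Those of shares of cells treat the cells of a culture as separate draws. Levels are counts summed over the cells of a culture, divided by the total of that culture and multiplied by 1000000 (CPM), and ratios are log2 of collagen over Matrigel after adding 1 CPM to each. The 6 epithelial markers Epcam, Cdh1, Krt8, Krt18, Krt19 and Cldn7, summed to 9818 CPM in collagen cells and 4551 CPM in Matrigel cells, while fibroblast, immune and endothelial lists each summed to under 2 CPM in both cultures. A list of 7 stem cell markers, among them Lgr5 and Olfm4, summed to 272 CPM in collagen cells and 2776 CPM in Matrigel cells. The 6 measured markers of regenerating epithelium, among them Ly6a, Clu and Anxa1, summed to 957 CPM in collagen cells and 26.7 CPM in Matrigel cells.

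Most Rab genes took a modestly larger share of the counts in collagen cells, though not more counts per cell, and none stood lower by as much as 2-fold. Of the 59 members, 41 reached 5 CPM in at least 1 culture. The ratio was above 0 for 34 of these 41 members (82.9%), beside 48.8% of the 10593 genes that reached the same level. The median log2 ratio was 0.44 over the members and -0.02 over all these genes. Rab11a, Rab31, Rab3c and Rab34, 4 members, stood higher by 2-fold or more in collagen, beside 8.21% of all genes tested, and 0 members were at least 2-fold lower, beside 8.91% of all genes. Of these, Rab3c (1.45 CPM in Matrigel cells) and Rab34 (1.15 CPM) reached the 5 CPM minimum only in collagen, where they were higher. The same minimum applied to all genes. By the level in the higher culture, the ratio was above 0 for 11 of 16 members at 5 to 20 CPM (beside 47.2% of all genes), for 8 of 10 at 20 to 50 CPM (beside 51.7%) and for 15 of 15 at 50 CPM or more (beside 48.3%). The members' medians in these ranges were 0.46, 0.27 and 0.44, and those of all genes were -0.03, 0.02 and -0.02. The interval of the linear ratio, which covers counting error only, lay above 1 for 33 members and below 1 for 0 members. The same count was not made over all genes, so it is not read as a trait of the family.

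These are shares of a cell's counts, not amounts per cell. The whole family summed to 2456 CPM in collagen cells and 1728 CPM in Matrigel cells, 1.42-fold higher in collagen. Counts of the family per cell were 311 in collagen and 308 in Matrigel, because a collagen cell held a mean of 126608 counts and a Matrigel cell 178363. Per cell and without scaling, 18 of the 41 members had more counts in collagen cells, beside 22.5% of all genes. The median log2 ratio per cell was -0.043 over the 41 members and -0.48 over all genes. Whether a collagen cell holds less RNA or was captured less fully cannot be told apart in these counts. The ratios that follow are of shares, and for 16 of the 41 members the sign turns when counts per cell are used.

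**Figure D1:**
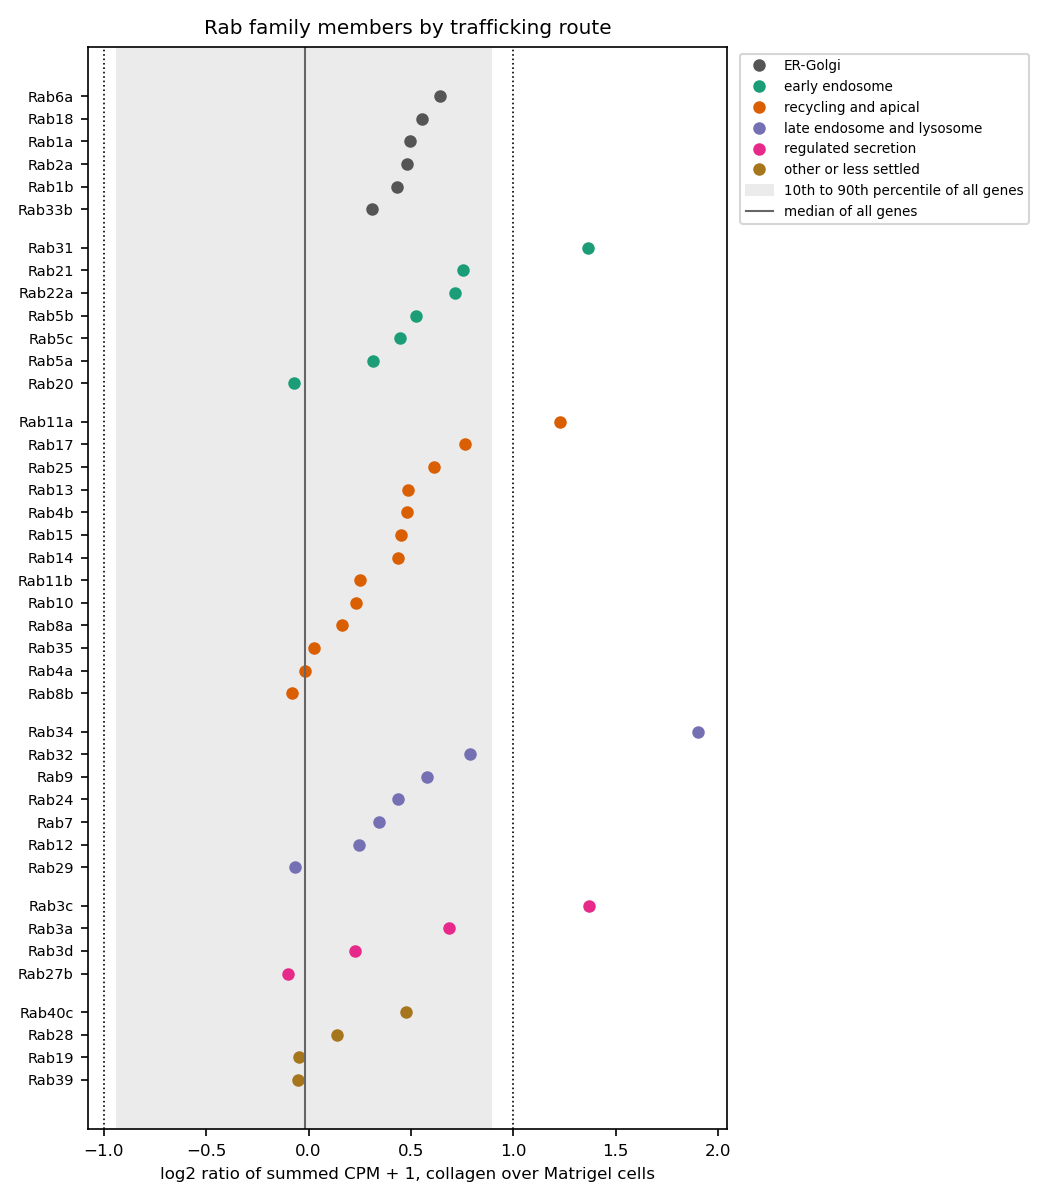
Log2 ratio of collagen over Matrigel (horizontal axis, 1 CPM added to each) for the 41 Rab members of at least 5 CPM, grouped by trafficking route, with the range between percentiles 10 and 90 of all 10593 genes as a gray band. Rab34, Rab31, Rab3c and Rab11a lie beyond the dotted line at 1, and the lowest member is Rab27b at -0.10; with counts per cell in place of shares, 16 signs turn.

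The recycling and apical route held the clearest single difference. Rab11a, which drives recycling endosomes toward the apical membrane, stood at 221 CPM (217 to 226) in collagen cells and 93.8 CPM (92.7 to 94.9) in Matrigel cells, a log2 ratio of 1.23. Over single cells it ran from 0 through a median of 201 to 1341 CPM in collagen and from 0 through a median of 85.9 to 627 CPM in Matrigel. The lower quartile of collagen cells, 126 CPM, lay above the upper quartile of Matrigel cells, 124 CPM, although the full ranges overlap. Rab11a was also higher per cell without scaling, with 28.0 counts in collagen cells and 16.7 counts in Matrigel cells. In the mouse annotation its exons overlap Gm47308 on the same strand, a gene not analysed here.

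The nearest relatives of Rab11a did not share the size of its ratio. Rab25, the epithelial member of the Rab11 group, stood at 262 CPM (257 to 267) in collagen cells and 171 CPM (169 to 172) in Matrigel cells, with a log2 ratio of 0.61 and cell medians of 246 and 161 CPM. Rab11b, a broadly expressed recycling Rab, stood at 65.7 CPM in collagen cells and 55.1 CPM in Matrigel cells, a log2 ratio of 0.25. In the order Rab11a, Rab25, Rab11b, the intervals of the linear ratios were 2.30 to 2.41, 1.501 to 1.56 and 1.15 to 1.24 and did not overlap. Whether copies of a molecule were collapsed is not given, so these intervals may be too narrow. Exons of Rab11b overlap an antisense gene, Gm17251, in the mouse annotation, and the sources used here do not say whether counting used the strand.

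The other members of this route lay below Rab11a, between -0.08 and 0.77. Rab8a, which with Rab11a carries cargo to the apical surface, had 75.5 CPM in collagen cells and 67.3 CPM in Matrigel cells (0.16). Its paralog Rab8b had 5.12 and 5.47 CPM (-0.08). Rab10, a relative that serves basolateral and other exocytic routes, had 99.5 and 84.5 CPM (0.23), and its exons overlap the antisense gene Rab10os. The ratios of Rab17 and Rab14 were larger than these. Rab17, an epithelial Rab linked to transcytosis, had 19.7 CPM in collagen cells and 11.2 CPM in Matrigel cells (0.77). Rab14, which works between Golgi and endosomes, had 154 and 114 CPM (0.44). Rab13, known at tight junctions, had 13.0 and 9.00 CPM (0.49). The fast recycling members differed among themselves: Rab4a had 20.1 CPM in collagen cells and 20.4 CPM in Matrigel cells (-0.02), Rab35 had 22.5 and 22.1 CPM (0.03), and Rab4b had 8.82 and 6.02 CPM (0.48). Of the values of Rab4b, 71.1% were not whole numbers and its exons overlap Gm21983, so its level is uncertain. Rab15, an endosomal recycling Rab, had 13.6 and 9.71 CPM (0.45). In all, 11 of the 13 members of the route lay above 0, the median was 0.44, and their sum was 981 CPM in collagen cells and 669 CPM in Matrigel cells.

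**Figure D2:**
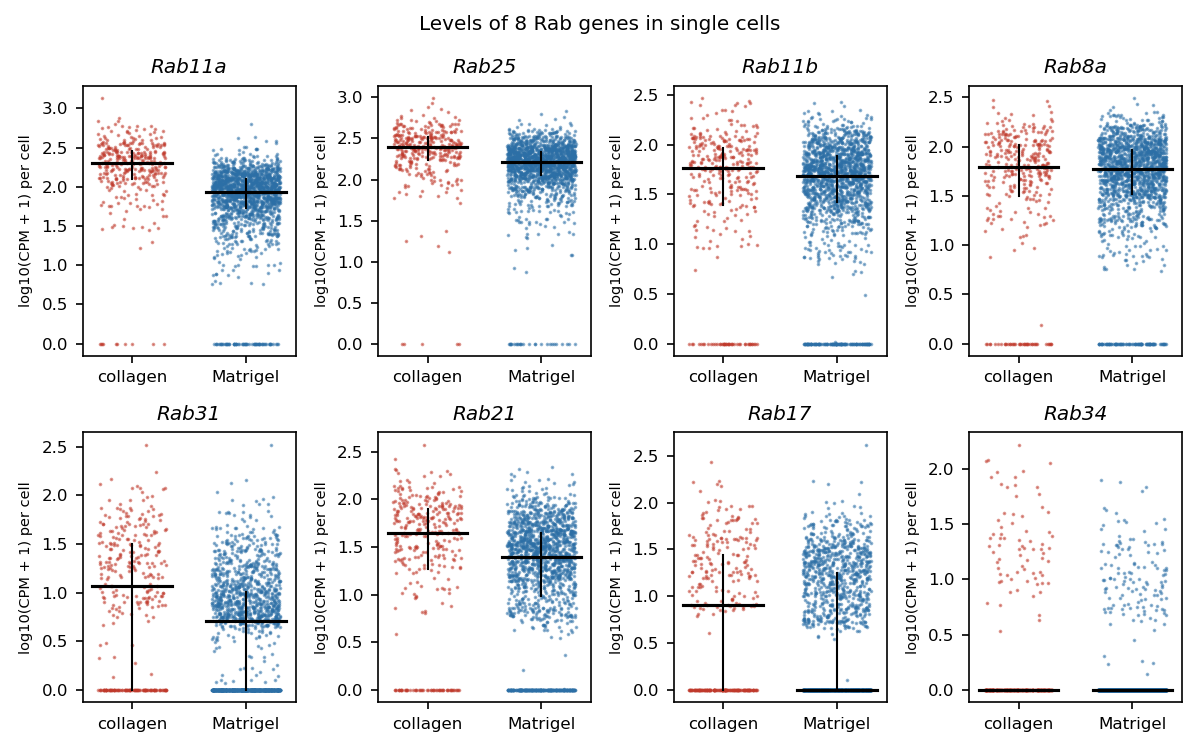
Level in single cells, as log10 of CPM + 1, of 8 Rab members in collagen cells (left) and Matrigel cells (right), with each point a cell, the horizontal bar the median and the vertical line the quartiles. Rab11a medians are 201 CPM in collagen and 85.9 CPM in Matrigel, Rab25 medians are 246 and 161 CPM, and the cells of both cultures overlap.

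Among early endosome members, which act between the plasma membrane and the first sorting compartment, 6 of 7 lay above 0 and the median was 0.52. Rab31, which acts between the trans-Golgi network and endosomes, passed 2-fold: it had 20.04 CPM (18.7 to 21.4) in collagen cells, against 7.15 CPM (6.85 to 7.47) in Matrigel cells, a log2 ratio of 1.37. Single cells ran from 0 through a median of 10.8 to 329 CPM in collagen and from 0 through a median of 4.11 to 329 CPM in Matrigel. To compare cells at equal depth, values were rounded to whole numbers and every cell was reduced at random to 77972 counts. The 72 collagen and 122 Matrigel cells with fewer were left out. Of the remaining 264 collagen and 1477 Matrigel cells, 58.3% (52.1 to 64.3) and 33.2% (30.8 to 35.6) had a count of Rab31, and the unthinned shares were 69.9% and 56.8%. At equal depth the share of cells with a count of Rab31 was thus higher in collagen. These intervals treat cells of 1 suspension per culture as separate draws and do not cover differences between suspensions. Of the values of Rab31, 14.8% were not whole, and the part of rounding in these shares was not tested. Rab21, which traffics integrins, had 51.4 CPM in collagen cells and 30.0 CPM in Matrigel cells (0.75). Rab22a, an endosomal sorting Rab, had 38.5 and 23.1 CPM (0.71). These were followed at smaller ratios by the 3 Rab5 genes, the core of early endosome fusion: Rab5a at 0.31 (35.02 and 28.0 CPM), Rab5b at 0.52 (20.8 and 14.1 CPM) and Rab5c at 0.44 (85.5 and 62.6 CPM). The 3 lay on the same side, and of the values of Rab5a 83.2% were not whole. Rab20, known for phagosome maturation, was the exception of the route, at 6.64 CPM in collagen cells and 7.03 CPM in Matrigel cells (-0.07).

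Late endosome and lysosome members lay above 0 in 6 of 7 cases, with a median of 0.44. Rab34, which positions lysosomes and serves ciliogenesis, had the largest ratio of the family on the log2 scale, with 7.02 CPM (6.25 to 7.87) in collagen cells and 1.15 CPM (1.03 to 1.28) in Matrigel cells, a log2 ratio of 1.90. The linear ratio was 6.13, with an interval of 5.22 to 7.19, so the log2 value understates it because 1 CPM was added to each side. After thinning, 20.8% (16.1 to 26.2) of collagen cells and 5.08% (4.01 to 6.32) of Matrigel cells had a count of it. It was present in few cells of either culture, and the 10 cells with most counts held 39.5% of them in collagen and 26.0% in Matrigel. Rab32, which delivers cargo to melanosomes and related organelles, had 14.9 CPM in collagen cells and 8.18 CPM in Matrigel cells (0.79), and its paralog Rab38 stayed under the minimum at 0.482 and 0.727 CPM. Rab7, the core Rab of late endosomes, had 118 and 93.2 CPM (0.34), and Rab9, which returns receptors to the Golgi, had 69.8 and 46.4 CPM (0.58). Rab24, an autophagy-related Rab, had 52.2 and 38.3 CPM (0.44), but its exons overlap those of Prelid1 on the opposite strand, a gene at 529 CPM in collagen cells and 476 CPM in Matrigel cells. Rab12 had 6.09 and 4.98 CPM (0.25), and Rab29 had 7.24 and 7.64 CPM (-0.07).

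Members of the pathway from the endoplasmic reticulum through the Golgi gave ratios of similar, modest size. All 6 members at the minimum lay above 0, between 0.31 and 0.64, with a median of 0.49. Rab2a, which serves Golgi traffic, had 288 CPM in collagen cells and 206 CPM in Matrigel cells (0.48). Rab1a, which brings vesicles from the endoplasmic reticulum to the Golgi, had 228 and 161 CPM (0.50), and its paralog Rab1b had 58.1 and 42.8 CPM (0.43). Rab6a, which acts in traffic within and out of the Golgi, had 141 and 90.1 CPM (0.64), and overlapping exons of Mrpl48 lie on the opposite strand. Rab18, of the endoplasmic reticulum and lipid droplets, had 49.8 and 33.6 CPM (0.55) with 72.9% of values not whole, and Rab33b, a Golgi Rab, had 18.9 and 15.1 CPM (0.31).

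Regulated secretion, the route by which granules are released, held 4 members at the minimum, and its sum was 72.3 CPM in collagen cells and 60.3 CPM in Matrigel cells. Rab3d, the granule Rab of exocrine cells, had 41.0 CPM in collagen cells and 34.9 CPM in Matrigel cells (0.23). Rab27b, which tethers granules at the plasma membrane, had 14.4 and 15.5 CPM (-0.10), and its paralog Rab27a had 3.85 and 3.45 CPM. After thinning, 29.9% of collagen cells and 44.1% of Matrigel cells had a count of Rab27b, a wider gap than that in its level. Rab3a, best known at synapses, had 5.81 and 3.22 CPM (0.69), with exons that overlap Mpv17l2 on the opposite strand, and Rab3b had 0.797 and 0.571 CPM.

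Rab3c, a neuronal and endocrine Rab3, stood at 5.34 CPM (4.66 to 6.08) in collagen cells and 1.45 CPM (1.32 to 1.60) in Matrigel cells, a log2 ratio of 1.37. This value rests on a handful of cells with enteroendocrine markers. The 10 cells with most counts held 88.5% of its counts in collagen and 47.5% in Matrigel, and a single collagen cell held 150 counts. Among cells that carried under 1% of their counts in each of 4 lists of differentiated markers, the log2 ratio was -0.12. Enteroendocrine markers summed to 737 CPM in collagen cells and 246 CPM in Matrigel cells, of which Chgb alone held 569 and 92.5 CPM. Of the 8 markers of this list at the minimum, 5 had a log2 ratio above 0 and 3 at or below it, the lowest Gcg at -3.95.

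The remaining members, of less settled routes, had a median of 0.05. Rab28 had 28.9 CPM in collagen cells and 26.1 CPM in Matrigel cells (0.14), Rab40c, a Rab with a SOCS box, had 15.4 and 10.8 CPM (0.48), and Rab19 had 5.10 and 5.29 CPM (-0.04). Rab39 had 20.03 and 20.8 CPM (-0.05), but 100% of its values were not whole, so its level is uncertain. The 18 members below the minimum were Rab2b, Rab6b, Rab30, Rab33a, Rab43, Rab7b, Rab9b, Rab36, Rab38, Rab42, Rab3b, Rab26, Rab27a, Rab37, Rab23, Rab39b, Rab40b and Rab44. Of these, 5 lay between 1 and 5 CPM in the higher culture and 13 lay below 1 CPM.

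The promoters of Rab11a, Rab34 and Rab31 are shown because these 3 passed 2-fold both over all collagen and Matrigel cells and among cells low in differentiated markers. Cells low in these markers made up most of both cultures. Each is the 250 bases before the annotated start, 5′ to 3′ on the gene's strand, from RefSeq on GRCm38.p6, and capitals mark motif matches on either strand: GGAATG for TEAD factors, TGANTCA for AP-1 and GGGCGG for the GC box. The windows are chr9:64737757-64738006 on the minus strand, chr11:78188177-78188426 on the plus strand and chr17:65772753-65773002 on the minus strand, in the order of the names.
Rab11a: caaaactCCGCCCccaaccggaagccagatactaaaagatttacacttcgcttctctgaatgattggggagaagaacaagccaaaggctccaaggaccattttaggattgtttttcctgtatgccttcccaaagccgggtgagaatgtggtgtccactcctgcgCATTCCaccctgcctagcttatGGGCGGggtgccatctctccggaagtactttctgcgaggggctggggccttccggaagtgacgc
Rab34: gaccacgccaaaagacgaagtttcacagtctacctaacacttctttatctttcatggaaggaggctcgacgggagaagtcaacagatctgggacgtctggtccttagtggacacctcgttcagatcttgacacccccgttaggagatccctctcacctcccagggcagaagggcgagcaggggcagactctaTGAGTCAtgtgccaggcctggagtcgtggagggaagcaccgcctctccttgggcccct
Rab31: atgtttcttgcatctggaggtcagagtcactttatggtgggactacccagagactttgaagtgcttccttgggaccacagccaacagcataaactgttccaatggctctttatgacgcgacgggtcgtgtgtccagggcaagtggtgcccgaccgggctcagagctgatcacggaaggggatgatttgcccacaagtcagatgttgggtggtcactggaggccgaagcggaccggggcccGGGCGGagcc
The Rab11a window holds 2 GC boxes and 1 TEAD match, the Rab34 window 1 AP-1 match and the Rab31 window 1 GC box. Rab34 has 2 entries, of which the first is shown. Of 59 members, 48 had an entry in the table, and among these 6 (12.5%) held GGAATG, 1 (2.08%) held TGANTCA, 4 (8.33%) held the E-box CACGTG and 33 (68.8%) held GGGCGG. Over all 27025 genes the shares were 12.6%, 6.87%, 6.05% and 32.9%. The median GC content was 60.6% in the members' windows and 52% in all windows, and the part of GC content in the share of GC boxes was not tested.

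The cells were next sorted by markers of differentiated types, in order to see in which cells each Rab was found. A cell entered a class when 1% of its counts lay in the marker list of that class, a threshold set after the marker levels were seen. Collagen cells held 16 enterocyte, 2 goblet, 4 Paneth and 4 enteroendocrine cells by this rule, with 310 in no class, and Matrigel cells held 23, 33, 18 and 11, with 1514 in no class. Enterocyte markers summed to 1748 CPM in collagen cells and 1239 CPM in Matrigel cells, goblet markers to 1039 and 1190 CPM, Paneth markers to 2203 and 1138 CPM, with 2 of 8 at 0 in collagen, and tuft cell markers to 5.49 and 9.80 CPM. Fabp1 alone held 1110 and 449 CPM of the enterocyte sums. Of the 10 enterocyte markers, 4 had a log2 ratio above 0 and 6 at or below it, with a median of -0.31. Around the threshold, between 5000 and 20000 CPM of the list, lay 16 enterocyte, 3 goblet, 3 Paneth and 0 enteroendocrine candidates in collagen and 35, 19, 18 and 3 in Matrigel. Because collagen classes were so small, levels by class are given for Matrigel cells, and cells of a class come from 1 suspension.

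In goblet cells of Matrigel organoids, 3 of the 8 members of regulated secretion were at least 2-fold higher than in cells of no class. These were Rab3d, Rab27a and Rab27b, beside 7.44% of all genes. In Paneth cells 4 were higher (these and Rab3c), beside 8.36%, and in enteroendocrine cells 6, beside 29.9%. The shares of all genes, unlike the 8, count only genes of at least 5 CPM in either group. Members such as Rab27a (2.71 CPM in cells of no class) and Rab3c (1.02 CPM) reached this minimum only through the class where they were high. Rab15 of the recycling route was higher in all 3 classes. In goblet cells, which make mucus, 7 of 42 members were at least 2-fold higher than in cells of no class, beside 7.44% of all genes, and 1 was at least 2-fold lower, beside 7.02%. Rab15 had 122 CPM (113 to 132) in goblet cells and 6.93 CPM in cells of no class, with counts in 32 of 33 goblet cells. Rab3d had 225 CPM (213 to 238) in goblet cells and 28.8 CPM in cells of no class. Rab27b had 97.3 CPM (89.2 to 106) and 13.6 CPM, and Rab27a had 22.0 and 2.71 CPM. Both Rab27 genes, Rab3d and Rab15 were thus higher in these goblet cells, which come from 1 suspension, and the counting intervals may be too narrow. Rab30, Rab2b and Rab43 were also higher, Rab30 with 14.1 CPM in goblet cells and 2.58 CPM in cells of no class. Each lay under 5 CPM in cells of no class and entered only through the goblet class. Of the values of Rab43, 93.0% were not whole and its exons overlap Gm45140 on the same strand, so its level is uncertain. Rab17 was the lower member, with 4.94 CPM in goblet cells and 11.1 CPM in cells of no class.

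Paneth cells, which release antimicrobial granules at the crypt base, had 6 of 41 members at least 2-fold higher, beside 8.36% of all genes, and 2 at least 2-fold lower, beside 8.45%. The higher members were again led by Rab15 with 63.6 CPM, Rab3d with 154 CPM, Rab27b with 63.4 CPM and Rab27a with 22.3 CPM, against 6.93, 28.8, 13.6 and 2.71 CPM in cells of no class. Rab3c and Rab30 were higher too, each with most of its Paneth counts in 1 cell, 19 of 21 for Rab3c and 12 of 17 for Rab30. Rab27a, Rab3c and Rab30 each lay under 5 CPM in cells of no class and entered only through the Paneth class. Rab4a and Rab9 were the lower members, Rab4a with 4.63 CPM in Paneth cells and 20.4 CPM in cells of no class. In the 4 collagen Paneth cells Rab3d had 341 CPM and Rab15 had 106 CPM, against 36.2 and 12.7 CPM in collagen cells of no class.

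Enteroendocrine cells, which release hormones, had 23 of 48 members at least 2-fold higher, beside 29.9% of all genes, and 6 at least 2-fold lower, beside 16.7%. Genes entered at 5 CPM in either group, so members such as Rab37 and Rab36, at 0.527 and 0.104 CPM in cells of no class, entered only through this class. The median log2 ratio was 0.99 over the members and 0.35 over all genes. Median counts per cell were 89922 in this class and 179994 in cells of no class, and their part in these ratios was not tested. This class has 11 cells, so levels of single genes can rest on 1 of them. Rab3d had 377 CPM (340 to 417), Rab15 had 64.2 CPM and Rab27a had 68.2 CPM, found in 10 of 11 cells. Rab3c had 99.4 CPM in this class and 1.02 CPM in cells of no class, with 53 of its counts in 1 cell, and Rab37 had 74.2 and 0.527 CPM, with 40 of its counts in 1 cell. Rab3a, too, was higher, with 31.1 CPM against 2.99 CPM in cells of no class. The lower members included Rab25, with 79.2 CPM in enteroendocrine cells and 171 CPM in cells of no class, while Rab11a was higher, with 202 and 92.8 CPM. Rab32 had counts in 0 of 11 enteroendocrine cells, which allows a level of up to 3.70 CPM, against 8.19 CPM in cells of no class.

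Enterocytes, the absorptive cells, had 2 of 39 members at least 2-fold higher, beside 9.39% of all genes, and 4 at least 2-fold lower, beside 21.7%. Rab15 had 0.523 CPM and Rab27b had 3.02 CPM in enterocytes, against 6.93 and 13.6 CPM in cells of no class. Rab13 and Rab19 were the other lower members, and Rab30 and Rab3a the higher ones, Rab30 with 8.40 CPM in enterocytes and 2.58 CPM in cells of no class. Rab30 and Rab3a (2.99 CPM in cells of no class) lay under 5 CPM there and entered only through the enterocyte class. Rab17 had 22.4 CPM in enterocytes and 11.1 CPM in cells of no class, just under 2-fold on the log2 scale.

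**Figure D3:**
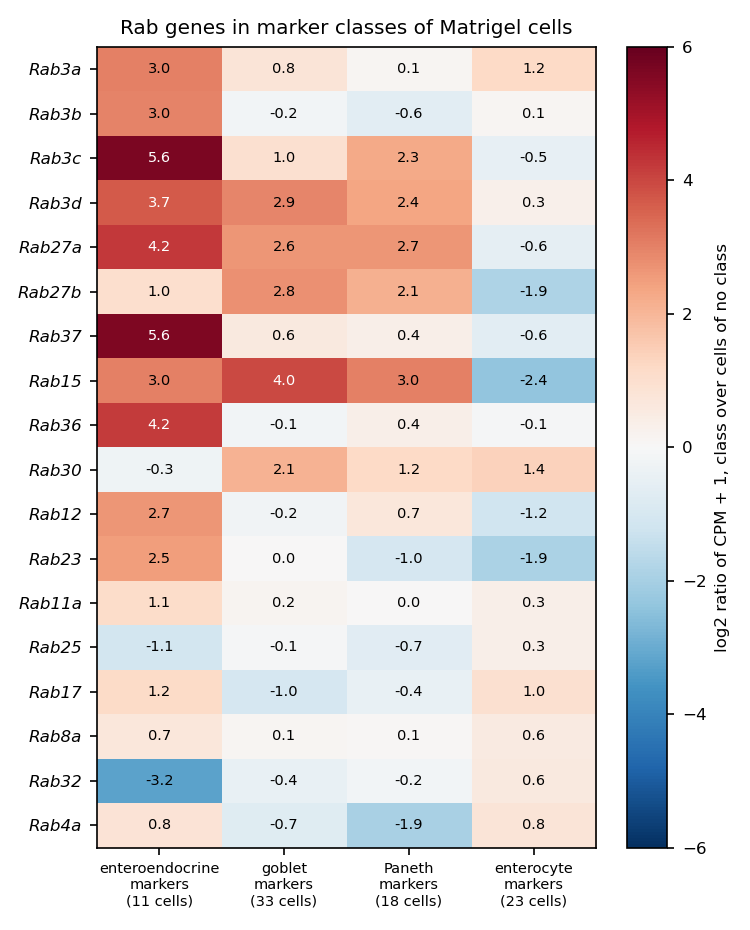
Log2 ratio (1 CPM added) of each marker class of Matrigel cells (columns) over Matrigel cells of no class, for Rab members (rows), red where higher in the class and blue where lower. Rab3d, Rab27a and Rab15 are red in enteroendocrine, goblet and Paneth cells, and Rab15 (0.523 CPM in enterocytes, 6.93 CPM in cells of no class) is blue in enterocytes.

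For the leading members the difference between the cultures was of similar size without these classes. Cells of no class were 92.3% of collagen and 94.7% of Matrigel cells, so both comparisons share most of their cells and are no independent check. Among cells of no class, Rab11a had 226 CPM in collagen and 92.8 CPM in Matrigel (1.28), Rab31 had 20.8 and 7.19 CPM (1.42), and Rab34 had 6.91 and 1.17 CPM (1.87). Rab25 had 264 and 171 CPM (0.62), and Rab17 had 19.0 and 11.1 CPM (0.73). Each lay close to its value over all cells, unlike Rab3c, whose ratio turned to -0.12.

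Stem and regenerative markers differed strongly between the cultures, so each culture was split by them into 3 groups of equal size. Matrigel cells were ranked by the sum of stem markers (533 cells a group) and collagen cells by the sum of regenerative markers (112 cells a group). In Matrigel, 12 of the 41 members had a higher level in the high than in the low stem group, beside 53.8% of all genes, and the median log2 ratio was -0.12 for members and 0.03 for all genes. Rab25 had 191, 167 and 154 CPM in the low, middle and high groups, Rab11a had 107, 90.6 and 84.0 CPM, and Rab17 had 13.5, 10.7 and 9.25 CPM. Of the 13 members of the recycling and apical route, 9 were at or below 0 from low to high and 4 were above it, namely Rab13 (0.37), Rab8b (0.27), Rab11b (0.21) and Rab35 (0.03). Among genes of at least 5 CPM in either of these groups, 0 of 38 members were at least 2-fold higher, beside 1.38% of all genes, and 0 were at least 2-fold lower, beside 3.24%.

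In collagen, 24 of the 41 members had a higher level in the high than in the low regenerative group, beside 34.7% of all genes, with medians of 0.07 for members and -0.15 for all genes. Rab11a had 167, 216 and 285 CPM in the low, middle and high groups, and Rab31 had 13.9, 22.2 and 24.0 CPM. Rab13 had 7.82, 13.2 and 18.3 CPM and was the 1 of 43 members at least 2-fold higher, beside 3.24% of all genes. Rab15, which marked goblet, Paneth and enteroendocrine cells in Matrigel, had 20.7, 11.9 and 8.16 CPM. Rab3c, Rab27a and Rab15 were the 3 members at least 2-fold lower, beside 6.88% of all genes. Rab3c and Rab27a reached 5 CPM only in the low group, where they were higher. Rab34 had 6.54, 7.48 and 7.02 CPM and its counting intervals overlapped along this ranking. Median counts per cell were 121670, 133242 and 113120 in the 3 groups, and their part in these levels was not tested.

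Collagen cells were also set against the low stem group of Matrigel alone, the Matrigel cells nearest to them in stem markers. The ratio was above 0 for 36 of 41 members, beside 50.5% of all genes, with a median of 0.40 for members and 0.0055 for all genes. Rab34 (2.28), Rab31 (1.48) and Rab11a (1.05) passed 2-fold toward collagen, beside 6.37% of all genes, and 0 members passed it toward Matrigel, beside 7.14%.

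**Figure D4:**
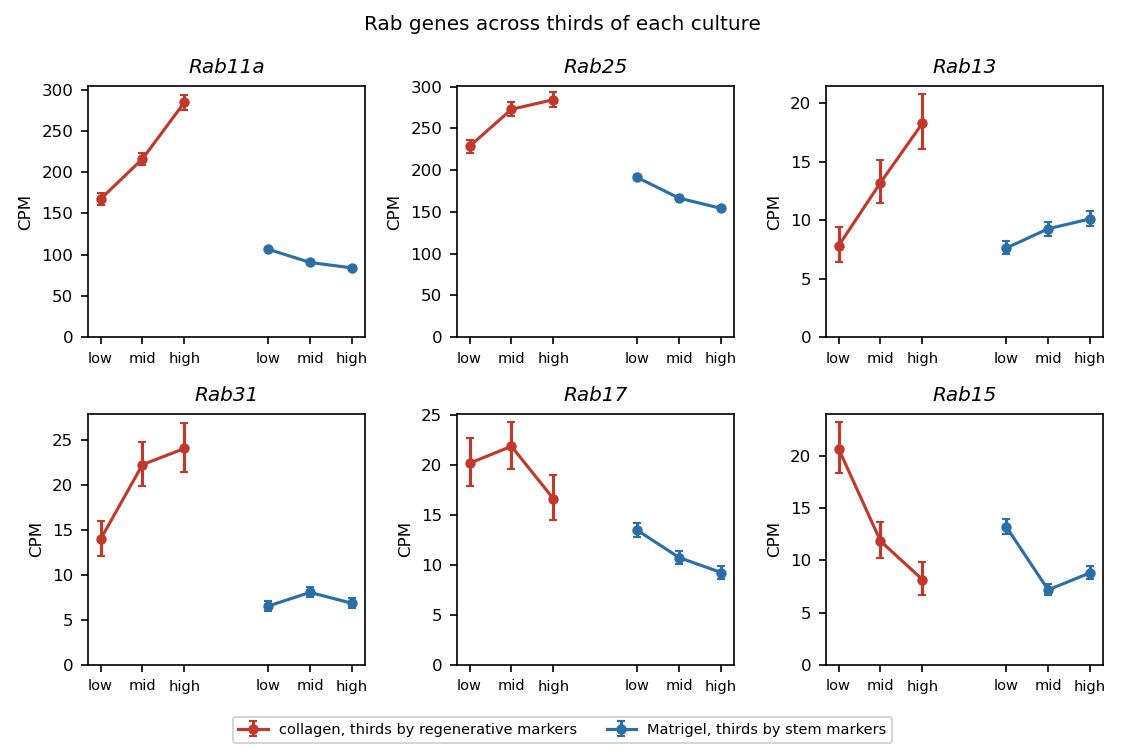
Level (CPM) of Rab members in 3 groups of collagen cells ranked by regenerative markers, left, and 3 groups of Matrigel cells ranked by stem markers, right, from low to high with exact Poisson 95% intervals. Rab11a reads 167, 216 and 285 CPM in collagen and 107, 90.6 and 84.0 CPM in Matrigel.

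Correlations between members from cell to cell were weak. Over 264 thinned collagen cells, the 105 pairs of 15 members of at least 50 CPM had a median Spearman correlation of 0.04, between -0.18 and 0.20, beside 0.012 for pairs of all genes at that level. Over 1477 Matrigel cells the 55 pairs of 11 members had a median of 0.026, beside 0.010 for all pairs. The genes most like Rab25 were Aprt (0.33), Gstp2 (0.31) and Gstp1 (0.31), a pair of near-identical paralogs, among 2765 genes in collagen cells, and Krt19 (0.25), Phgr1 (0.23) and Prap1 (0.22) among 2716 genes in Matrigel cells. These correlations share a library and a thinned depth, are weak and are given as a description.

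The proteins that switch Rabs and act for them were described in the same way. Of 167 listed genes 166 were in the table and 131 reached 5 CPM. Of these, 14 passed 2-fold toward collagen, beside 8.21% of all genes, and 2 toward Matrigel, beside 8.91%. The ratio was above 0 for 99, beside 48.8% of all genes, and the median was 0.27, beside -0.02. Among 11 escort and prenylation proteins, Praf2 was the 1 at least 2-fold higher, beside 8.21% of all genes. It had 31.8 CPM in collagen cells and 10.6 CPM in Matrigel cells (1.503), and 40.9% of its values were not whole. Rabac1 and Arl6ip5, which are relatives of Praf2, gave 0.54 and 0.37. Among 33 exchange factors, Trappc1, a subunit of the TRAPP exchange complexes, had 83.6 CPM in collagen cells and 49.4 CPM in Matrigel cells (0.75), and Madd, a Rab3 GEF, had 14.5 and 8.87 CPM (0.65). Among 30 GAPs, 5 were at least 2-fold higher, beside 8.21% of all genes, and 1 was at least 2-fold lower, beside 8.91%. Tbc1d10b had 18.9 CPM in collagen cells and 6.73 CPM in Matrigel cells (1.37), Rab3gap2 had 24.8 and 10.1 CPM (1.21), Tbc1d22a had 18.9 and 8.33 CPM (1.09), and Tbc1d4, a GAP known from insulin-controlled traffic, had 9.26 and 24.0 CPM (-1.28).

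Effectors of the recycling and apical route differed in both directions. Ehbp1l1, a Rab8 effector of apical traffic, had 15.8 CPM in collagen cells and 5.32 CPM in Matrigel cells (1.41), Micall2, a Rab13 effector at junctions, had 13.1 and 5.02 CPM (1.23), and Ehd1, which acts at recycling endosomes, had 53.9 and 23.3 CPM (1.17). Its relative Ehd4 had 12.4 and 27.5 CPM (-1.09). Of the 14 effectors, 3 were thus at least 2-fold higher, beside 8.21% of all genes, and 1 lower, beside 8.91%. Myo5b, the motor that Rab11a and Rab25 recruit, was named after its value was seen: it had 59.0 CPM in collagen cells and 29.0 CPM in Matrigel cells, and its log2 ratio after adding 1 CPM, 0.9995, lay just under the threshold of 1.

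Secretion effectors held the largest ratio of these lists. Unc13d, which primes granules with Rab27, had 11.6 CPM in collagen cells and 0.951 CPM in Matrigel cells (2.69), and Mlph, which links Rab27a to a myosin, had 27.2 and 11.9 CPM (1.12), while Rph3al, another Rab27 binder, had 10.5 and 10.7 CPM (-0.02). Unc13d reached the minimum of 5 CPM only in collagen, where it was higher. Of the late endosome and lysosome effectors 1 of 14 was at least 2-fold higher, beside 8.21% of all genes. This was Plin3, a Rab9 effector and lipid droplet protein, with 225 and 108 CPM (1.06). The retromer subunit Vps35 had 114 and 69.6 CPM (0.70), and Vps41 and Rilpl2 gave 0.63 and 0.60. Of ER-Golgi effectors 1 of 14 was at least 2-fold higher, again beside 8.21% of all genes. It was the dynein adaptor Bicd1 that Rab6 recruits, with 22.8 and 6.92 CPM (1.59). The golgins Golga2 (0.81) and Golga4 (0.55) and the tether Uso1 (0.55) followed. Of the 10 early endosome effectors 0 were past 2-fold in either direction, beside 8.21% of all genes higher and 8.91% lower. Eea1, the tether of Rab5, had 49.7 and 35.4 CPM (0.48), followed by Ankfy1 (0.26), Rabep1 (0.24) and Appl2 (0.20).

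**Figure D5:**
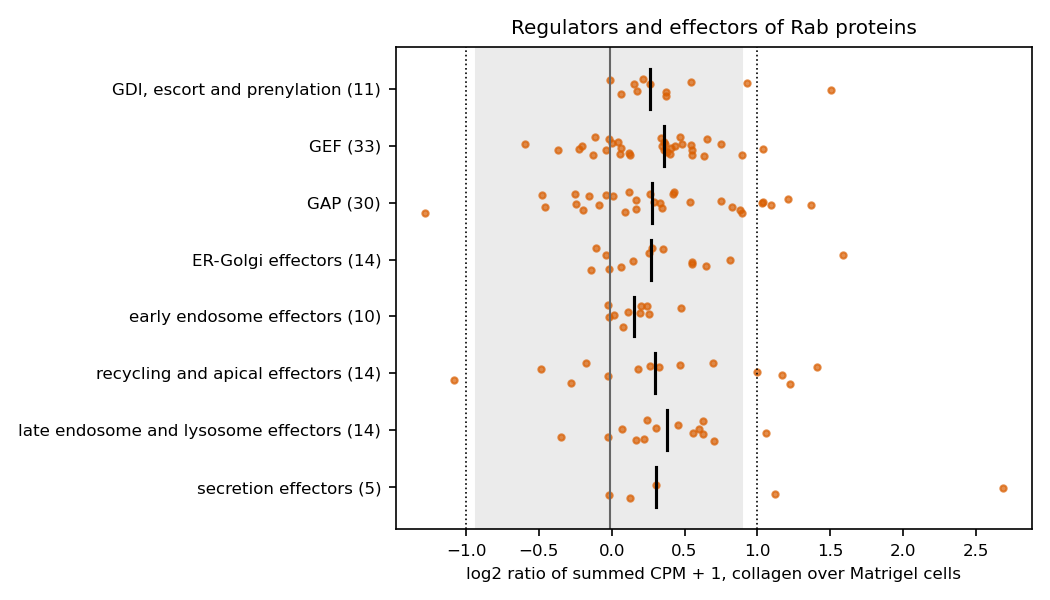
Log2 ratio of collagen over Matrigel (1 CPM added to each) for Rab regulators and effectors by list, each point a gene and each bar a list median, with the range between percentiles 10 and 90 of all genes as a gray band. Ratios are of shares of counts. Unc13d lies at 2.69 and Tbc1d4 at -1.28, and the median of all 131 genes is 0.27.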

How the data were processed

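The authors deposited a table of expected counts (37172 genes by 2090 cells) and a table of hashtag counts in whole numbers. The processing notes of the submitters name the tools STARsolo 2.7.10a, cutadapt 4.1 and R 4.2.1 and the build GRCm39, without roles or order. The annotation and the strand of counting are not given in the sources used here. Of the values above 0, 75.6% were whole (within 1e-06). Whether copies of a molecule were collapsed is not given, so intervals may be too narrow. Sums were rounded for intervals.

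Cell names set the culture (336 collagen and 1615 Matrigel cells), and 139 cells named as doublets were left out. No further doublet caller was run. Of the hashtag columns, 9 were not used. Cells were kept from 500 detected genes up and to 30% mitochondrial counts. Ratios used a pseudocount of 1 CPM and genes of at least 5 CPM in either culture, and called means an absolute log2 ratio of at least 1. Every member was accounted for. Members of at least 5 CPM and the paralog sets were named, with up to 4 genes of each regulator list (at least 10 CPM, largest absolute ratio first) and the 3 genes most like Rab25. Some genes that this rule names are left out of the text. Exon overlaps come from GENCODE on GRCm38, and no coordinates were converted. Intervals were computed with scipy 1.17.1 under Python 3.11.15. The log2 ratio, but not the intervals, was tested on simulated Poisson counts, for changed genes of at least 50 CPM only. The members and lists were chosen with earlier results of these data known, and the alternatives that leave out cells with markers, keep whole values or use counts per cell were added after the data were seen. Spp1 and Dennd2b, without an entry, are not analysed here. Routes and roles are from general knowledge of the family.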

Additional observations from a re-analysis of the deposited data

How the results depend on the processing

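The count of 4 members at least 2-fold higher in collagen cells became 2 (Rab11a and Rab31) with a pseudocount of 5 CPM, 2 (the same genes) among members of at least 20 CPM, where Rab3c and Rab34 do not enter, and 1 (Rab34) with counts per cell without scaling. The count of members at least 2-fold lower was 0 under every setting run. With counts per cell, 18 members lay above 0 in place of 34, beside 22.5% of all genes in place of 48.8%. The median over members was then -0.043. Over all members with any count, at the usual scaling, the median was 0.25. Rab3c turned to -0.12 among cells under 1% in all 4 marker lists; the other 3 called members kept their direction over the 15 settings, Rab11a between 0.74 and 1.28, Rab31 between 0.90 and 1.47 and Rab34 between 0.97 and 2.52. Counts per cell turned the sign of 16 members, and every other setting that of 0 to 3. A hashtag share of 60% gave 384 collagen and 1653 Matrigel cells, with 49 and 54 cells named as doublets among them, and a share of 95% gave 324 and 1536. The median log2 ratio of all genes was 0.0073 when scaled by median of ratios, -0.07 when scaled without mitochondrial and top genes and -0.48 per cell, against -0.02 as reported. No paired analysis was possible because each culture was 1 suspension. The main limits are that culture, medium, release and depth differ together, and that low members such as Rab34 rest on few cells.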
